A study of Mus musculus with 80 samples.

Results

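Retinoid X receptor (RXR) ChIP-Seq peaks that lay in exons and were called only in livers of pioglitazone-treated WT mice made up 851 sites in 589 protein-coding genes. Overlapping peaks of all 40 ChIP libraries were merged into 215015 sites, of which 65375 had their strongest summit in an exon of a protein-coding gene (GENCODE M21, mm10). A member had to be called in at least 3 of the 10 treated WT libraries and in 0 of the 10 untreated WT and 0 of the 20 KO libraries. The peak calls themselves chose the members, so their presence in treated WT livers and their absence elsewhere is a description and was not tested. Without regard to exons, 2441 of the 5967 sites called in at least 3 treated WT libraries (40.9%) were called in no other library. This held for 851 of the 3164 with their summit in an exon and for 1590 of the 2803 outside exons. Calls in treated WT libraries alone were thus less common at exonic sites than elsewhere.

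The mice were male, 5 months old, after 12 weeks on diet, and all are labelled C57BL6/J, although the KO mice were bred from floxed and Alb-Cre lines. WT livers came from mice on control diet (WT Control), control diet with pioglitazone (WT Pio), high-fat diet (WT HFD) and high-fat diet with pioglitazone (WT HFD-Pio). The same 4 diets were given to KO mice, in which Cre under the albumin promoter deletes a floxed Pparg in hepatocytes, so that other liver cells keep the gene. Each of the 8 groups had 5 livers from separate animals, and each ChIP library had its own input. All WT samples and those of KO Control are labelled with an RXR antibody, whereas the labels of the other 15 KO ChIP samples name none although their titles name RXR. Kept tags were 2.04 to 4.26 M per WT and 0.628 to 1.06 M per KO ChIP library. Exonic sites numbered 8 to 147 per untreated WT liver, 263 to 6078 per treated WT liver and 4912 to 19548 per KO liver, so that absence from KO livers was set against libraries in which exonic sites were common.

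Pioglitazone is a thiazolidinedione that activates PPARγ, a nuclear receptor which binds DNA as a heterodimer with RXR. The element that this heterodimer prefers is a direct repeat of the half-site AGGTCA with a spacer of 1 base, and such elements are mostly found in introns, promoters and intergenic enhancers. Exons are the stretches of a gene that are joined in its mRNA, and coding exons are the part of them that is translated. In the liver, PPARγ is low in normal hepatocytes and rises in steatosis, where it drives genes of fat uptake and lipid droplets.

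The sequences of 3 leading members whose central bases lie at 1 place in the genome (Agr2, Car2 and Cldn7), and of a member each of Slc26a3 and Pparg, the genes with the most member sites, show how the summits sit on exons. Each run is 151 bases around the strongest summit on mm10 (GRCm38, from the RefSeq genome), written along the strand of the gene. Coding exon bases are in capitals and all other bases in lower case. When the exons of all annotated transcripts are merged, longer exons result at Agr2 (581 bp), Cldn7 (754 bp) and Pparg. Lower case bases there can thus be exonic in another transcript.
Agr2, chr12:35997382-35997532, plus strand: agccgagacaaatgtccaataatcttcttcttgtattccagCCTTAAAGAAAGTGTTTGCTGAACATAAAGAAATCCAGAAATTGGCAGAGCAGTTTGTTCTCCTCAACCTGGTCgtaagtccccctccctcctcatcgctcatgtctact
Car2, chr3:14895490-14895640, plus strand: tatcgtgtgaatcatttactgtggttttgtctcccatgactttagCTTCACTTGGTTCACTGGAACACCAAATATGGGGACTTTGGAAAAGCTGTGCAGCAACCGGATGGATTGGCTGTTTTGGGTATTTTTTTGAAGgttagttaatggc
Cldn7, chr11:69966016-69966166, plus strand: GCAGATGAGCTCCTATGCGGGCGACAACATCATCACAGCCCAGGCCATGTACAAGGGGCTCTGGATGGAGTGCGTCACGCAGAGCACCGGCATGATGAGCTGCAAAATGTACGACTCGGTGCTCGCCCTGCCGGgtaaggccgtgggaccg
Slc26a3, chr12:31466494-31466644, plus strand: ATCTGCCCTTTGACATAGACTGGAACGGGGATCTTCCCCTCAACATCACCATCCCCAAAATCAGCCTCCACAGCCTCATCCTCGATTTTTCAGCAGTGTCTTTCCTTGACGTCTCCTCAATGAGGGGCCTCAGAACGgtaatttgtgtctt
Pparg, chr6:115463156-115463306, plus strand: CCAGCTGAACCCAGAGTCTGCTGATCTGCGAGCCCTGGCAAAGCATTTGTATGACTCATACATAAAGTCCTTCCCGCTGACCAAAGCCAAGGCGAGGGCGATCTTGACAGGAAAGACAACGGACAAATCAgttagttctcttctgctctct
The windows of Agr2 (74 coding bases) and Car2 (93 coding bases) held a whole short coding exon, with its splice sites on both sides. Cldn7 (134 coding bases), Slc26a3 (137) and Pparg (130) held the 3′ end of a coding exon and the bases that follow it.

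A second pair is shown because it bears on how many members can be placed. Rps27 encodes a protein of the small ribosomal subunit, and Rps27rt is an intronless copy of it on another chromosome.
Rps27, chr3:90212926-90213076, minus strand: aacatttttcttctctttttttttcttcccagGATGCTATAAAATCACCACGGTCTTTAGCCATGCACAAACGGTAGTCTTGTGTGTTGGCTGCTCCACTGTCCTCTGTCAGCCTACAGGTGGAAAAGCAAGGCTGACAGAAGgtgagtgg
Rps27rt, chr9:114982494-114982644, minus strand: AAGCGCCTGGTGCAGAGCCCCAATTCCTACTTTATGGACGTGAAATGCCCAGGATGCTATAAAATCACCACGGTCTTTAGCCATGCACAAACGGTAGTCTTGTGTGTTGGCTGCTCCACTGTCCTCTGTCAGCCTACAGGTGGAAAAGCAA
The 2 windows shared an identical run of 104 bases, longer than a sequenced read, so reads from one locus and the other could not be told apart over that stretch.

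Most members were coding. The summit lay in a coding exon at 759 of 851 members (89.2%), in a 3′ UTR at 68 (7.99%), in a 5′ UTR at 4 (0.470%) and in an exon without coding annotation at 20 (2.35%). By bases, coding exons made up 37.7% and 3′ UTRs 34.6% of the exons of protein-coding genes. Among all exonic sites the coding share was 62.6% and the 3′ UTR share 29.5%. The nearest set for comparison was the 2287 exonic sites that were called in at least 3 treated WT libraries and no untreated one but also in KO livers, and there the shares were 80.3% and 17.97%. The coding share hardly varied with how often a member was called, at 89.2% of the 453 members called in 3 or 4 libraries, 89.3% of the 327 called in 5 to 7 and 88.7% of the 71 called in 8 to 10.

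Most member sites were short and lay on exons. Their median width was 197 bp (range 47 to 1076 bp), and 461 of 851 (54.2%) lay wholly within annotated exons of their gene. The corresponding share was 17.7% for the sites also called in KO livers, which were wider with a median of 407 bp, and 49.3% for all exonic sites. Each site also called in KO livers merges in a KO peak, and MACS2 estimated fragments of 119 to 168 bp in KO libraries. In contrast, 387 members were called only in libraries with an estimate below 50 bp. The difference in width and in this share thus follows in part from merging and fragment length. In 56 genes with at least 3 member sites, the stretch from the first to the last member spanned 528 kb in all, of which 439 kb (83.2%) was intron. Across these stretches the treated WT libraries had 263 sites that touched an exon and 15 that did not, and 0 of those 15 were called in 3 or more treated livers. These genes were chosen for their exonic members, and 206 of the 263 sites are those members, so most of this contrast was set by the choice.

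Peak edges were examined at 324 internal coding exons that hold a member, are at least 100 bp long and lie more than 200 bp from the next exon. How far peaks ran past the exon differed with the fragment length that MACS2 estimated from each library. In the 6 treated WT libraries with an estimate below 50 bp (Pio 2, 3 and 5 and HFD-Pio 1, 4 and 5, 45 to 48 bp), a peak covered 42.1 to 56.2% of exon edges at 50 bp inside the exon and 0 to 0.253% at 50 bp outside. In the other 4 (Pio 1 and 4, HFD-Pio 2 and 3, 169 to 263 bp), the shares were 60.7 to 76.1% inside and 20.8 to 52.0% outside. Only exons with a peak in the library counted, which left 228 to 594 edges in each of the 6 libraries and 348 in Pio 1. Pio 4, HFD-Pio 2 and HFD-Pio 3 had only 28, 24 and 34 edges, so their shares are rough. MACS2 extends each read to the estimated length, so a longer estimate widens peaks by construction. No untreated WT or KO library had an estimate below 50 bp. The 4 treated WT libraries with a long estimate had 263 to 2193 exonic sites, against 8 to 147 in untreated WT libraries. Reads from spliced RNA or its cDNA would also stop at exon borders. The reads were not analysed here, and whether such material had a part in the members was not tested.

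**Figure D1:**
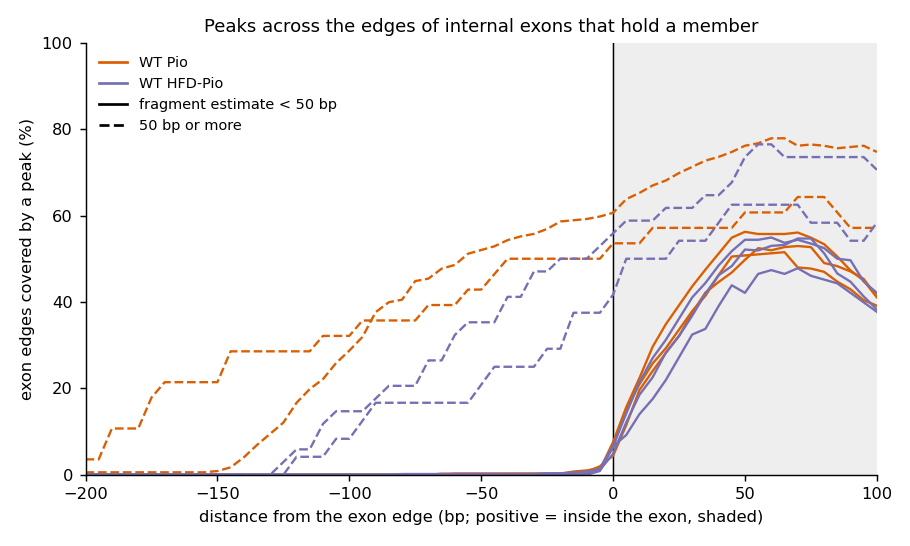
Share of exon edges covered by a peak (y axis, percent) against distance from the edge (x axis, bp, positive inside the exon, shaded), over internal coding exons that hold a member and have a peak in the library, 1 line per treated WT liver (WT Pio orange, WT HFD-Pio purple). The 6 solid lines, libraries with a fragment estimate below 50 bp, fall to at most 0.253% at 50 bp outside the exon, whereas the 4 dashed lines stay at 20.8 to 52.0% there. The dashed lines of Pio 4, HFD-Pio 2 and HFD-Pio 3 rest on 24 to 34 edges each.

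The number of members called differed widely between livers of the same group. WT Pio 1 to 5 called 446, 537, 795, 51 and 534 members, and WT HFD-Pio 1 to 5 called 731, 42, 57, 617 and 278. Pio 4, HFD-Pio 2 and HFD-Pio 3 stood apart with 5.99%, 4.94% and 6.70% of the members, and all 3 were among the 4 libraries with a long fragment estimate. In WT Pio the liver with the most kept tags (Pio 3, 4.05 M) called the most members and that with the fewest (Pio 4, 2.50 M) the fewest. In WT HFD-Pio the liver with the most tags (HFD-Pio 3, 4.26 M) called 57 and that with the fewest (HFD-Pio 4, 2.04 M) called 617. As a share of all exonic sites of the liver, members were steadier, at 13.1 to 20.3% in WT Pio and 13.5 to 18.6% in WT HFD-Pio. Of the members, 834 were called in both diets, 14 in WT Pio only and 3 in WT HFD-Pio only. The rule pools both diets, and Pio 3 and HFD-Pio 1 alone called 93.4% and 85.9% of the members. The same split was not counted over other sites, so it cannot be read as particular to members.

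By number of libraries, 261 members were called in exactly 3, 192 in 4, 109 in 5, 134 in 6, 84 in 7, 47 in 8, 16 in 9 and 8 in all 10. Fold enrichment, the ratio of ChIP to local input at the summit as MACS2 gives it, had a median over members of 4.33 for those called in 3 libraries, 5.72 for those called in 6 and 12.5 for those called in 10. Just below the threshold lay 474 exonic sites called in exactly 2 treated libraries and in no other, with a median of 3.78. A further 240 exonic sites met the rule but for 1 KO library (median 4.92), and 2 met it but for 1 untreated WT library. The weakest members were in Phf23 (2.78 ± 0.0419, SD over 3 livers), Tmed5 (2.80 ± 0.0626, 3 livers) and Wls (2.80 ± 0.0514, 4 livers). The strongest were in Rps18 (19.5 ± 8.52, 7 livers), the carbonic anhydrase gene Car1 (17.5 ± 9.11, 7 livers) and the galectin gene Lgals3 (15.8 ± 10.4, 8 livers).

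**Figure D2:**
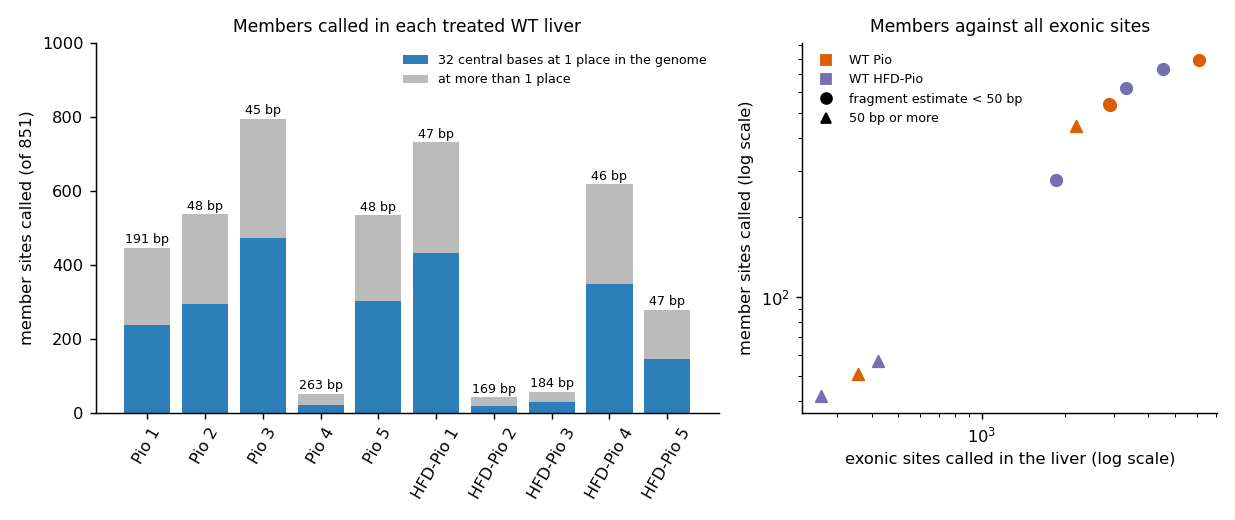
Left, member sites called in each treated WT liver (y axis, of 851), split by whether the 32 bases at the summit occur at 1 place (blue) or more (grey), with the MACS2 fragment estimate above each bar. Right, members called against all exonic sites called (both axes on log scales): Pio 4, HFD-Pio 2 and HFD-Pio 3 sit lowest with 42 to 57 members, and Pio 3 highest with 795.

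Many members lay in sequence that the genome holds more than once. The 32 bases at the strongest summit occurred at more than 1 place on the assembled chromosomes for 336 of 851 members (39.5%). The share was 12.1% for the exonic sites also called in KO livers and 3.66% for all exonic sites. Members called more often were less often at 1 place, with 71.3% of those called in 3 or 4 libraries, 49.2% of those called in 5 to 7 and 43.7% of those called in 8 to 10. For these 336 members the gene named below is uncertain, because a read can belong to a paralog or a processed pseudogene. A further point is that 27 members lay in genes of a single exon and 10 overlapped an annotated pseudogene. Of the 8 members called in all 10 treated livers, those in Gm8797, Gm11361, Rps27rt, Rpl10-ps3, Serf2 and Selenbp1 had 2 to 6 places, while that in Cldn7 had 1. The 515 members at 1 place fell in 385 genes, 89.5% of them in coding exons.

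In Slc26a3 and Pparg, the genes with the most members, peaks of treated WT livers lay mostly on exons. Slc26a3 encodes the chloride-bicarbonate exchanger of the colonic surface epithelium and held 9 members, 8 in coding exons and 1 in the 3′ UTR. One of the 3 members with the most calls, 8 livers each (chr12:31465616-31465983), had 7.47, 12.0, 30.1 and 13.01 in WT Pio 1, 2, 3 and 5 and 16.7, 3.33, 18.1 and 6.30 in WT HFD-Pio 1, 3, 4 and 5, and was not called in Pio 4 or HFD-Pio 2. In the 83.0 kb of the gene, WT Pio livers had 34 peaks that touched exons and 2 that did not, WT HFD-Pio livers had 28 and 2, and the other groups had 0.

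Pparg, the gene deleted in the KO, held 7 members (6 in coding exons, 1 in the 3′ UTR), each called in 3 to 6 treated WT livers. The strongest (chr6:115462983-115463295) had 6.84, 6.55, 5.47 and 4.69 in WT Pio 1, 2, 3 and 5 and 6.19 and 7.62 in WT HFD-Pio 1 and 4. Pio 4, HFD-Pio 2, HFD-Pio 3 and HFD-Pio 5 did not call it. Over the 129 kb of Pparg, WT Pio livers had 19 peaks that touched exons and 1 in an intron, and WT HFD-Pio livers had 13 and 2, while WT Control had 3 intronic peaks and KO Pio had 1. The KO libraries had no exonic peak in Pparg. Since untreated WT livers had none either, the peak lists do not check the deletion. Pgk1, a glycolytic enzyme on the X chromosome, had 6 members, all at 3 to 5 places in the genome. Among the genes with 5 members were Selenbp2, a paralog of Selenbp1, Etfa, Pdcd10 and Tpt1.

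**Figure D3:**
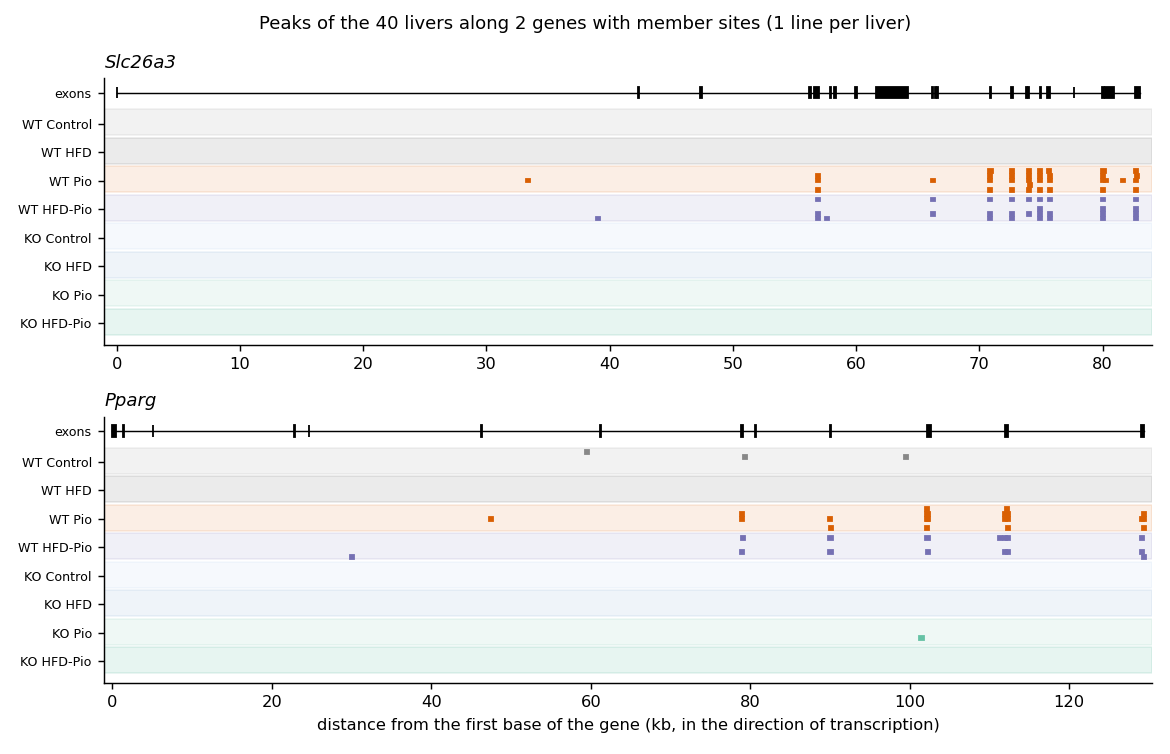
Peaks of each of the 40 livers (1 line per liver, grouped by colour) along Slc26a3 and Pparg, against the distance from the first base of the gene (x axis, kb), with exons as black boxes. Short peaks are drawn at a minimum width so that they can be seen. Peaks of WT Pio and WT HFD-Pio livers stack under the exons, with 34 and 28 of them on exons of Slc26a3, and the other 6 groups are empty apart from intronic peaks in Pparg.

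Members at 1 place in the genome were led by genes of epithelium. Agr2, a protein disulfide isomerase of mucus-secreting cells, had 6.65, 23.3, 21.2 and 23.5 in WT Pio 1, 2, 3 and 5 and 15.2, 5.32, 7.05, 20.9 and 8.74 in WT HFD-Pio 1 to 5. Car2, a cytosolic carbonic anhydrase, had 7.11, 11.9, 24.1 and 12.0 in the same 4 WT Pio livers and 22.3, 5.97, 2.85, 20.3 and 9.20 in WT HFD-Pio. Both were missing only in Pio 4, and the diets overlapped at both. The claudin gene Cldn7, which encodes a tight junction protein, had a member called in all 10 livers with 4.73, 7.95, 22.3, 2.58 and 16.5 in WT Pio and 7.51, 2.65, 2.69, 14.9 and 11.04 in WT HFD-Pio.

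The rest of the most often called members at 1 place were in Gpx2, the glutathione peroxidase of the gut epithelium (mean 11.9 ± 4.42, SD over 9 livers), Ugt2b1, a glucuronosyltransferase (9.83 ± 4.44), Krt88 (8.73 ± 3.80), Ethe1, a mitochondrial sulfur dioxygenase (8.46 ± 4.39), and Zg16, a lectin of mucus granules (7.36 ± 4.004). Fos, an immediate early transcription factor, had the only 3′ UTR member among those called in 9 livers (6.18 ± 2.87).

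**Figure D4:**
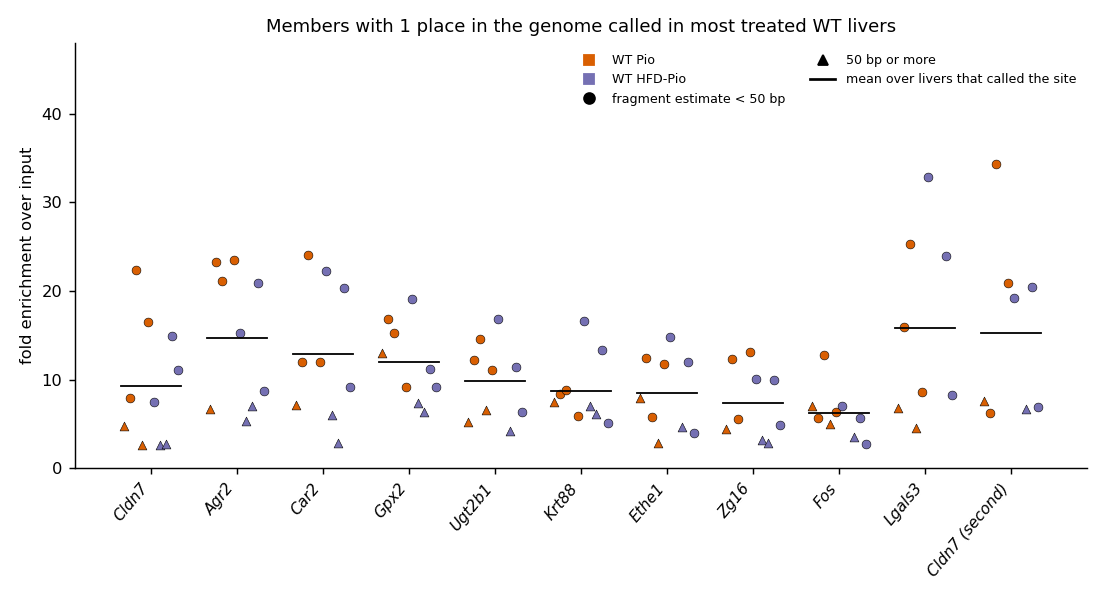
Fold enrichment over input (y axis) in each treated WT liver that called the site, for 11 of the members at 1 place in the genome called in most livers (WT Pio orange, WT HFD-Pio purple, circles for a fragment estimate below 50 bp, triangles for a longer one, lines for the mean). The colours overlap at every site. At Cldn7 the 3 lowest points, 2.58 to 2.69, are the triangles of Pio 4, HFD-Pio 2 and HFD-Pio 3.

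Ribosomal protein genes took more member sites than any other list. Of 80 cytosolic ribosomal protein genes, 48 (60%) held a member, against 2.69% of all 21911 protein-coding genes, and they took 87 member sites. Only 1 of these 87 was at 1 place in the genome, the central bases of the other 86 occurring at several. The leading 3 were Rps27 (13.6 ± 8.86, SD over 9 livers), Rps27a (10.1 ± 6.33, 9 livers) and Rps19 (13.6, 8 livers). Translation factors held 17 members in 7 of 36 genes, led by Tpt1 and Eef1g, and 1 of the 17 was at 1 place. Members at several places also made up all those of splicing factors and hnRNPs (4 of 41 genes, 0 of 7 members at 1 place, led by Hnrnpa1 and Srsf3), glycolytic enzymes (2 of 20 genes, Pgk1 and Eno1, 0 of 8) and histones (2 of 14, H2afz and H3f3a, 0 of 5).

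Genes of fatty acid oxidation and PPARα targets held the most members at 1 place among the lists not written after the members were read. A member lay in 10 of its 36 genes (27.8%), among them Acadvl, Decr1, Echs1, Etfa, Etfb, Etfdh, Fabp1, Hadha and Hadhb, and 23 of its 25 member sites were at 1 place. Fabp1, the fatty acid binding protein of liver and small intestine, had 4.32, 8.64, 9.40 and 7.76 in WT Pio 1, 2, 3 and 5 and 4.33, 5.98, 5.55 and 11.2 in WT HFD-Pio 1 to 4. Etfa and Etfb, which encode the electron transfer flavoprotein, held members called in up to 6 and 8 livers. Any exonic site in the list, whether a member or not, was found in 2 to 17 genes per WT Pio liver, 2 to 16 per WT HFD-Pio liver, 0 to 1 per untreated WT liver and 1 to 8 per KO liver. As a share of all genes with an exonic site in the liver, these were 0.514 to 0.653% in WT Pio, 0.418 to 1.41% in WT HFD-Pio, 0 to 0.909% in WT Control, 0% in WT HFD and 0.0368 to 0.142% in KO livers, and untreated WT livers thus overlapped treated ones.

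Lipid droplet and PPARγ target genes held members in 3 of 30 genes, Pck1, Ucp2 and Cav1, with 4 sites in all. Pck1 encodes the cytosolic PEPCK of gluconeogenesis and glyceroneogenesis, and its leading member (chr2:173158138-173158574) had 7.05, 9.12, 10.02, 3.97 and 6.57 in WT Pio and 7.50, 7.21 and 5.49 in WT HFD-Pio 1, 4 and 5. Cav1, the caveolin gene, was the only 1 of the 7 PPARγ exemplar genes of the study with a member. That member was called in Pio 1, 2 and 3 and HFD-Pio 1 with 4.49, 3.74, 3.64 and 2.69, close to the lowest values of all members, and another exonic site of Cav1 was called in 4 treated WT and 4 KO livers. Of 28 genes for RXR and its partner receptors only Pparg held members, and it was also the only one of 21 annotated adipose genes. Cholesterol and fatty acid synthesis had 1 of 30, Acss2.

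The lists of energy metabolism differed among themselves, all with a share above the 2.69% of all protein-coding genes. However, 45.9 to 69.0% of their genes had an exonic site, member or not, in at least 3 treated WT livers, beside 7.67% of all protein-coding genes. Members lay in 6 of 24 genes of mitochondrial carriers and import (25%, 1 of 11 sites at 1 place), 4 of 17 ATP synthase genes (23.5%, Atp5g1, Atp5g2, Atp5l and Usmg5, 0 of 6 sites at 1 place) and 3 of 19 citric acid cycle genes (15.8%). The shares were 2 of 29 genes (6.90%) for complexes II to IV and cytochrome c and 2 of 37 (5.41%) for complex I. Suclg1, a subunit of succinyl-CoA ligase, led the citric acid cycle genes with 5.85 over 6 livers. Members were also found in 5 of 36 proteasome and ubiquitin genes and in 4 of 35 chaperone genes, where Ppia, the cyclophilin A gene, led with 10.5 ± 6.29 over 9 livers at 3 places.

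Lists for cell types ranged from no member to a large share. Secreted liver proteins held 0 members in 75 genes, and of the hepatocyte markers Alb, Apoa1, Ttr, Cps1 and Serpina1a none had an exonic site in any treated WT liver. In KO livers Ttr had one in 20 of 20 and the other 4 markers in 0. Alb, Apoa1, Ttr and Serpina1a each had one in 1 untreated WT liver. Hepatocyte metabolic enzymes held members in 9 of 65 genes, led by Pck1, Adh1 and Gstp1. Skeletal and cardiac muscle (44 genes), neural tissue (54) and blood (8) held 0 members, and with 2.69% of all protein-coding genes holding one, lists of this size would hold few or none. The rule itself removes every site called in a KO liver, and neural genes had an exonic site in 42 to 49 of 54 genes per KO liver. As a share of all genes with an exonic site in the liver, neural genes took 0.730 to 1.68% in KO livers. The share was 0.433 to 1.98% in treated WT livers and 0 to 6.06% in WT Control, so the groups overlapped.

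In the list for intestine and pancreas, 9 of 31 genes (29.0%) held 17 members, 13 of them at 1 place. They were the keratins Krt8, Krt18, Krt19 and Krt20, the cadherin Cdh17, the lectin Lgals4, the brush border protein gene Vil1, and the trypsinogens Prss2 and Try4. Krt19 led with 7.92, 5.32, 16.4 and 12.2 in WT Pio 1, 2, 3 and 5 and 15.9, 2.99, 10.5 and 5.04 in WT HFD-Pio 1, 2, 4 and 5. Any exonic site in this list was found in 0 to 11 genes per WT Pio liver, 0 to 9 per WT HFD-Pio liver, 0 in each untreated WT liver and 0 to 3 per KO liver. Pio 4 and HFD-Pio 3 had none. As a share of all genes with an exonic site in the liver, these were 0 to 0.448% in WT Pio and 0 to 0.913% in WT HFD-Pio. In KO livers the share was 0 to 0.0461%, and untreated WT livers had only 8 to 146 genes with any exonic site.

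A longer list of 66 genes of large intestine epithelium was written after the members had been read, and it therefore supports nothing on its own. It describes where members lay: 40 of the 66 held 78 members, 62 of them at 1 place. Among them were the transporters Slc26a3, Slc26a2 and Aqp8, the carbonic anhydrases Car1 and Car2, the goblet cell genes Agr2, Clca1, Fcgbp and Zg16, the hormone genes Gcg and Pyy, and the transcription factor genes Elf3, Klf4 and Klf5. Pyy, which encodes the gut hormone peptide YY, had a mean of 7.01 ± 1.68 (SD, 5 livers) and Gcg, the proglucagon gene, 4.90 ± 1.77 (SD, 4 livers). Any exonic site in the list was found in 8 to 43 genes per WT Pio liver and in 11 to 41 per WT HFD-Pio liver. Untreated WT livers had 0 to 2 and KO livers 1 to 6. The genes with any exonic site numbered 311 to 3309 per WT Pio, 219 to 2543 per WT HFD-Pio, 8 to 146 per untreated WT and 2496 to 6505 per KO liver. As a share of these, the list took 1.299 to 2.57% in WT Pio, 1.61 to 5.02% in WT HFD-Pio, 0 to 3.03% in WT Control, 0% in WT HFD and 0.0350 to 0.0922% in KO livers, so that treated and untreated WT livers overlapped. Whether cells, RNA or DNA of another tissue had a part in the members was not tested.

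Smooth muscle genes held members in 4 of 18 (Acta2, Actg2, Csrp1 and Mylk, 6 of 6 sites at 1 place). Any exonic site in this list was found in 4 to 13 genes per KO liver, 2 to 9 per treated WT liver and 0 per untreated WT liver. As a share of all genes with an exonic site in the liver, these were 0.242 to 0.653% in WT Pio and 0.354 to 1.37% in WT HFD-Pio. In KO livers the share was 0.124 to 0.280%. Cytoskeletal actins and tubulins had 8 of 26, led by Actg1, and immune genes 4 of 33 (Cd74, H2-Eb1, H2-K1 and Lyz2). Extracellular matrix and stroma had 1 of 30, Thbs1. A short list of squamous keratins and desmosomal genes, also written after the members had been read, had 6 of 15. The remaining 534 members (62.7%) lay in 414 genes outside every list.

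**Figure D5:**
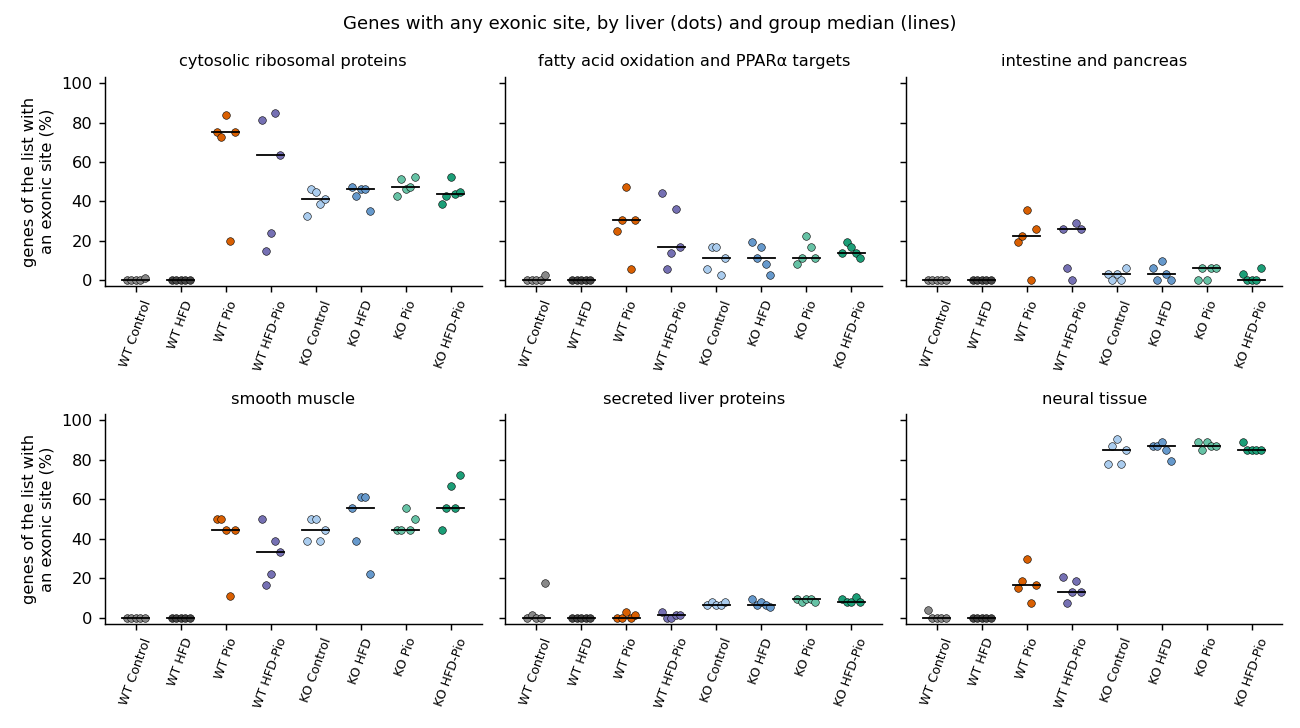
Share of each list's genes with any exonic site (y axis, percent) by liver (dots) and group median (lines), for 8 groups and 6 lists. Treated WT livers lie above 0 in the ribosomal, fatty acid oxidation and smooth muscle lists, and KO livers stand highest for neural tissue at 42 to 49 of 54 genes. These shares are not scaled to the genes with any exonic site in the liver, 2496 to 6505 in KO and 219 to 3309 in treated WT livers.

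The genes of the members were also marked elsewhere. Another exonic site lay in 357 of the 589 member genes (60.6%) in at least 1 KO liver and in 224 (38.03%) in 3 or more. For all 1681 genes with an exonic site in at least 3 treated WT livers, the shares with any exonic site in KO livers were 86.1% and 74.4%. For all protein-coding genes the first was 47.8%. The rule bars KO calls at the member itself, so a member gene needed a second site, whereas any site counted for the other genes. The lower shares of member genes thus follow in part from the rule. An exonic site in an untreated WT liver was found in 11 member genes (1.87%), beside 2.17% of all protein-coding genes. A peak of a KO liver lay within 1000 bp of 262 members (30.8%), and a peak of an untreated WT liver within 1000 bp of 15 (1.76%). No other library had an exonic site in 229 member genes (38.9%). For this count and for the peaks within 1000 bp, the share over other genes or sites was not computed.

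Because the rule did not use treatment within KO mice, the effect of Pio on these other sites in KO livers could be tested. By the rule, every exonic site of these genes that a KO liver called falls among them. The 1989 other exonic sites of member genes were called 324 times in the median KO Control liver (range 102 to 378) and 335 times in KO Pio (323 to 410). On HFD the medians were 290 (123 to 418) in KO HFD and 312 (265 to 351) in KO HFD-Pio. The differences of 0.54 and 0.15 on the log2 scale were within the variation among livers (two-sided exact permutation tests with 252 assignments, adjusted p = 0.429 and 0.810), and the groups overlapped. The smallest p that these tests allow is 0.00794. Untreated WT livers called 0 to 3 of these sites, whereas WT Pio livers called 38 to 649 and WT HFD-Pio livers 34 to 532. As a share of the exonic sites of the liver, these were 0 to 6.06% in WT Control and 0 to 5% in WT HFD. The shares were 10.6 to 12.0% in WT Pio, 9.73 to 12.9% in WT HFD-Pio and 2.08 to 2.58% in KO livers. The genes were chosen for exonic peaks in treated WT livers, so the contrast between WT livers was largely set by the choice and was not tested.

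Diet among treated WT mice was likewise not used by the rule. The number of members called was 8.46 ± 1.57 in WT Pio and 7.64 ± 1.90 in WT HFD-Pio on the log2 scale (SD, n = 5 each), a difference of -0.82 (exact two-sided permutation test, adjusted p = 0.627). Members took 4.12 ± 1.92% of the peaks of a WT Pio liver and 2.94 ± 2.08% of those of a WT HFD-Pio liver, a difference of -1.18 percentage points with the same adjusted p of 0.627 by the exact permutation test. The median fold enrichment of called members was 2.25 ± 0.176 and 2.19 ± 0.201 on the log2 scale, a difference of -0.056 (exact permutation test, adjusted p = 0.627). Among libraries with a fragment estimate below 50 bp (3 against 3), the 3 differences were -0.29, 0.29 and -0.068, and among the others (2 against 2) they were -1.61, -3.38 and -0.038. Neither subset can reach a p of 0.05, the smallest being 0.1 and 0.333 by exact permutation.

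At single sites, fold enrichment was compared between the diets with limma at all 2018 sites called in at least 3 livers of both groups, 191 of which were members. No site passed an adjusted p of 0.05 (0%), member or not. At an unadjusted p under 0.05 there were 11 sites (0.545%), 1 of them a member (0.524% of the members tested), where 5% would be expected by chance. The test was thus conservative here, and the lack of calls does not decide whether diet mattered. The median change, WT HFD-Pio against WT Pio, was -0.068 over the members and -0.092 over all sites on the log2 scale, and 81 of the 191 members (42.4%) were higher in WT HFD-Pio beside 40.5% of all sites. Members with the smallest p among those higher in WT HFD-Pio were in AA467197 (0.75, SE 0.38), Lgals3 (0.95, SE 0.72) and Rpl27a (0.51, SE 0.47), and among those lower they were in Srsf3 (-0.67, SE 0.34), Acta2 (-1.13, SE 0.64) and Ppia (-1.001, SE 0.57). The adjusted p was 0.9997 for all 6 in limma.

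The number of livers that called each site was compared by two-sided Fisher's exact tests at all 5967 sites called in at least 3 treated WT livers. None passed an adjusted p of 0.05 (0%). With 5 livers per group, even a complete split gives a p too large to pass adjustment over 5967 sites, unless very many sites split so. This test therefore could hardly call a single site and does not decide whether diet mattered. At an unadjusted p under 0.05 there were 24 sites, of which 3 were members. These 3 were Sap18 (5 WT Pio livers against 1 WT HFD-Pio, at 2 places in the genome), Rpl5 (4 against 0, at 5 places) and Nox1, a colonic NADPH oxidase (4 against 0). In the other direction the widest gaps were in Acsl5, an acyl-CoA synthetase, Prss2 and Rwdd1, each called in 0 WT Pio and 3 WT HFD-Pio livers. Rpl5, Nox1, Acsl5, Prss2 and Rwdd1 met the rule through the calls of 1 diet group alone. The same calls give their gaps, which therefore support nothing on their own. The median member was called in 1 more WT Pio liver than WT HFD-Pio livers, as was the median of all sites tested.

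Elements of the PPARγ-RXR type were rare around member summits. A direct repeat of AGGTCA with a spacer of 1 base and at most 2 mismatches, on either strand within 100 bp of the summit, was found at 20 of 851 members (2.35%, 95% Wilson interval 1.53 to 3.60%). The shares were 1.88% of the exonic sites also called in KO livers, 2.56% of all exonic sites and 2.25% of all sites in windows of the same length. The interval treats sites as independent, although 168 genes held 2 or more members, so it is only descriptive. The shares were not tested against each other. An exact half-site AGGTCA occurred at 13.6% of members and 12.6% of all exonic sites. The 2 members with the closest matches are shown with the half-sites in capitals. Ucp2, which encodes a mitochondrial uncoupling protein, held an exact repeat in a coding exon, 11 bp from the summit. The repeat near an Slc26a3 member (chr12:31447744-31447795) had 1 mismatch and lay outside the called site, 62 bp from its summit.
Ucp2, chr7:100498394-100498416, minus strand: tgatgAGGTCAtAGGTCAccagc
Slc26a3, chr12:31447699-31447721, minus strand: attgaAAGTCAcAGGTCAgtgaa
The Ucp2 member (chr7:100498351-100498442) was called in 5 livers with 4.66, 4.56 and 3.75 in WT Pio 2, 3 and 5 and 3.75 and 4.76 in WT HFD-Pio 1 and 4. Such a match describes these letters and not binding.

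Start sites of member genes overlapped peaks of treated WT livers more often than those of all genes, though seldom. The window from 250 bases before to 50 after the start was tabulated for 449 of the 589 member genes, and 16 (3.56%) of these windows overlapped a site called in at least 3 treated WT livers, beside 0.337% of 27025 windows for all genes in the RefSeq table on GRCm38.p6. These windows include the first 50 bases of the first exon. The member genes were chosen for exonic peaks in the same livers, so an excess over all genes follows in part from the choice and was not tested.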

How the data were processed

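RXR ChIP-Seq of 40 livers was analysed from the peak lists, 1 per ChIP library; the 40 inputs were used only through them. Per the submitters' notes and the methods, the authors used Novoalign for alignment to mm10 and ran MACS2 2.1.1.20160309 on each ChIP library against its own input, keeping 1 tag per position, at a p cutoff of 0.001 in WT and a q cutoff of 0.05 in KO livers. This difference, and the lower depth of KO libraries (0.628 to 1.06 against 2.04 to 4.26 M kept tags), bears on which sites count as absent from KO livers. The deposited values are fold enrichment over input (a ratio), the pileup signal at the summit and −log10 p and q values. Both deposited lists of each library held identical peaks (40 of 40). Reads per site were not analysed here, so no counting interval was computed for them, and the count test of the study was not repeated.

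Peaks on chromosomes 1 to 19, X and Y were merged when they overlapped by 1 bp. Summits were placed on GENCODE M21, coding annotation first. Members, gene lists and named genes were chosen with earlier results of these data known, and 2 gene lists (large intestine epithelium and squamous keratins) after the members were read. Named members were the 15 called most often, those in exemplar genes, up to 3 per list, the 5 genes with most members, the extremes of each diet test and the 3 weakest and strongest. Further genes in the text are named as list members, by place in the genome, or as motif matches, chosen after their values were seen. Places in the genome were exact matches of the 32 bases at the summit on either strand of GRCm38.p6. Group differences used exact two-sided permutation tests with Benjamini-Hochberg adjustment over 3 measures of diet and 2 contrasts in KO livers. limma 3.58.1 (R 4.3.3) was run with a trend on log2 fold enrichment centred on each library, with livers that did not call a site missing, and was tested on simulated data. Python 3.11.15, pandas 2.3.3, scipy 1.17.1 and pysam 0.24.0 were used. Samples were grouped by label, and p-values measure the spread between livers. 1 gene with members is not reported here, though the counts include it.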

Additional observations from a re-analysis of the deposited data

How the results depend on the processing

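The number of member sites (851) stayed within 1.5 times under a minimum of 4 livers (590), -log10 q of at least 1.3 (724), no other peak within 1000 bp (579) and a shared overlap of 50 bp (669). It moved to 398 with a minimum of 5 livers, which can only remove members, and to 488 with -log10 q of at least 5, where sites were rebuilt in all libraries and the cause was not tested. Leaving out each of the 40 libraries gave 631 to 880. Chosen after seeing the data, the count was 799 in the 6 libraries with a fragment estimate below 50 bp alone and 29 in the 4 others alone, and 387 members were called in the 6 only. The share of members with a direct repeat went from 2.35% to 0.235% with at most 1 mismatch and to 1.06% with a window of 50 bp, again by construction.

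No diet or KO comparison passed its threshold under any alternative, though the permutation tests in fragment subsets and within pairs could not have passed it. The difference in median fold enrichment turned to 0.051 with -log10 q of at least 5, and the difference in member share to 0.288 in libraries with an estimate below 50 bp. The difference between KO HFD-Pio and KO HFD turned to -0.0852 as a share of peaks (percentage points) and to -0.059 with -log10 q of at least 5. The cause of these turns was not tested. Leaving out each liver gave ranges of -1.50 to -0.263 for members called, -1.90 to -0.385 for their share, -0.13 to 0.0033 for their fold enrichment (above 0 without HFD-Pio 5), 0.232 to 0.702 for KO Pio and -0.138 to 0.302 for KO HFD-Pio (below 0 without KO HFD 5). Calls at single sites were 0 throughout, which for Fisher's exact tests was nearly fixed by the size of the groups.

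With the replicate number as a block the 3 diet differences had the same size, -0.82, -1.18 and -0.056, with an adjusted p of 0.625 in exact permutation tests within pairs, and those in KO livers were 0.54 and 0.15 with an adjusted p of 0.812. With 32 arrangements, these tests within pairs cannot reach a p under 0.05. The block gave 0 calls in limma. Same-numbered livers were not paired by the labels. The correlation of their called sites, as deviations from the group means, was -0.0887 to 0.0555, and 1 of 5 livers correlated best with its own number.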
